A study of Homo sapiens with 6 samples.

Results

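The 10 genes described here carry cystine into the cell, build glutathione from it and take glutathione apart again. They were chosen by name as the 2 chains of the cystine exchanger (SLC7A11, SLC3A2), the enzymes of glutathione synthesis (GCLC, GCLM, GSS) and those of glutathione breakdown and the gamma-glutamyl cycle (GGT1, CHAC1, CHAC2, GGCT, OPLAH). All 10 were among the 25071 genes of the count table, matched from symbol to Ensembl identifier, and all 10 were among the 15816 genes with enough counts to be tested. They were compared between 3 libraries of PLC/PRF/5 cells, an established human hepatoma line, given the control vector and 3 libraries of the same line given an ARD1-overexpression plasmid. RNA of both groups was taken 48 hours after transfection. ARD1 is the older name of NAA10, an N-terminal acetyltransferase, and the study's title ties it to glutathione synthesis and to escape from ferroptosis. The sources used here do not give the plasmid's promoter or any selection of transfected cells, so each library is described as the whole culture. In such bulk libraries fewer cells with a transcript and less transcript per cell cannot be told apart.

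Glutathione is a tripeptide of glutamate, cysteine and glycine and the main small thiol of the liver cell. Cystine enters through the exchanger of SLC7A11 and SLC3A2 and is reduced to cysteine. Glutamate-cysteine ligase then joins glutamate to cysteine, which is regarded as the slow step, and glutathione synthetase adds glycine. Outside the cell gamma-glutamyltransferase removes the glutamyl group, and in the cytosol the CHAC enzymes cut glutathione directly, releasing 5-oxoproline. 5-oxoprolinase returns 5-oxoproline to glutamate. Glutathione is the reducing partner of GPX4, which detoxifies lipid peroxides, and cells short of cystine can die by ferroptosis.

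The libraries held 21857327 to 25011357 counts, so that 3 counts corresponded to 0.120 to 0.137 CPM (counts scaled to a common library size). This value and the marker sums below use library totals alone. The CPM of single genes are also scaled by TMM factors, which were 0.880 to 0.931 in control and 1.093 to 1.101 in ARD1 libraries. NAA10 was 10.1-fold higher in the ARD1 libraries, which checks the labels. Of the 3 control libraries, replicate 1 stood apart: chi-square over degrees of freedom was 17.4 and 20.2 between it and the other 2, and 2.97 between those. Where a result below turned on this library, its value without it is given beside it. The 8 hepatocyte and hepatoma markers listed for this check, albumin and AFP among them, were all detected, with a summed level of 616 to 685 CPM in control libraries and 189 to 213 CPM in ARD1 libraries. The 5 fibroblast markers summed to 68.5 to 91.6 and 19.2 to 22.2 CPM, the 4 endothelial markers to 64.1 to 72.3 and 98.4 to 112 CPM, and the 5 immune markers to 4.92 to 6.12 and 3.48 to 5.24 CPM. The part of these shifts in the members' values was not tested.

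Of the 10 members, 7 were higher in the ARD1 libraries, 2 were lower and 1, GSS, did not pass. The test was edgeR's quasi-likelihood test with a Benjamini-Hochberg adjusted p under 0.05. Of all genes tested 64.6% passed it, 32.4% as higher and 32.2% as lower, so that a changed gene was the usual case in this comparison. By at least 1 on the log2 scale, 5 members rose (9.71% of all genes tested) and 2 fell (11.8%). Of these 5, CHAC2 (1.03) was under 1 without control replicate 1 (0.92) and with GC and length trends removed (0.69). It was also just under 1 without ARD1 replicate 2 (0.996) or 3 (0.991). The median log2 fold change was 0.75 over the members and 0.03 over all genes tested. With GC and length trends removed these medians were 0.44 and 0.04, and with library totals alone 1.01 and 0.30. For 9 members the CPM of the 2 groups did not overlap, as for 69.6% of all genes tested. The 7 members that rose hold the uptake step, the ligase step, the cytosolic breakdown step and GGCT. The 2 that fell are the last enzyme of the 5-oxoproline branch and the cell-surface transferase.

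**Figure D1:**
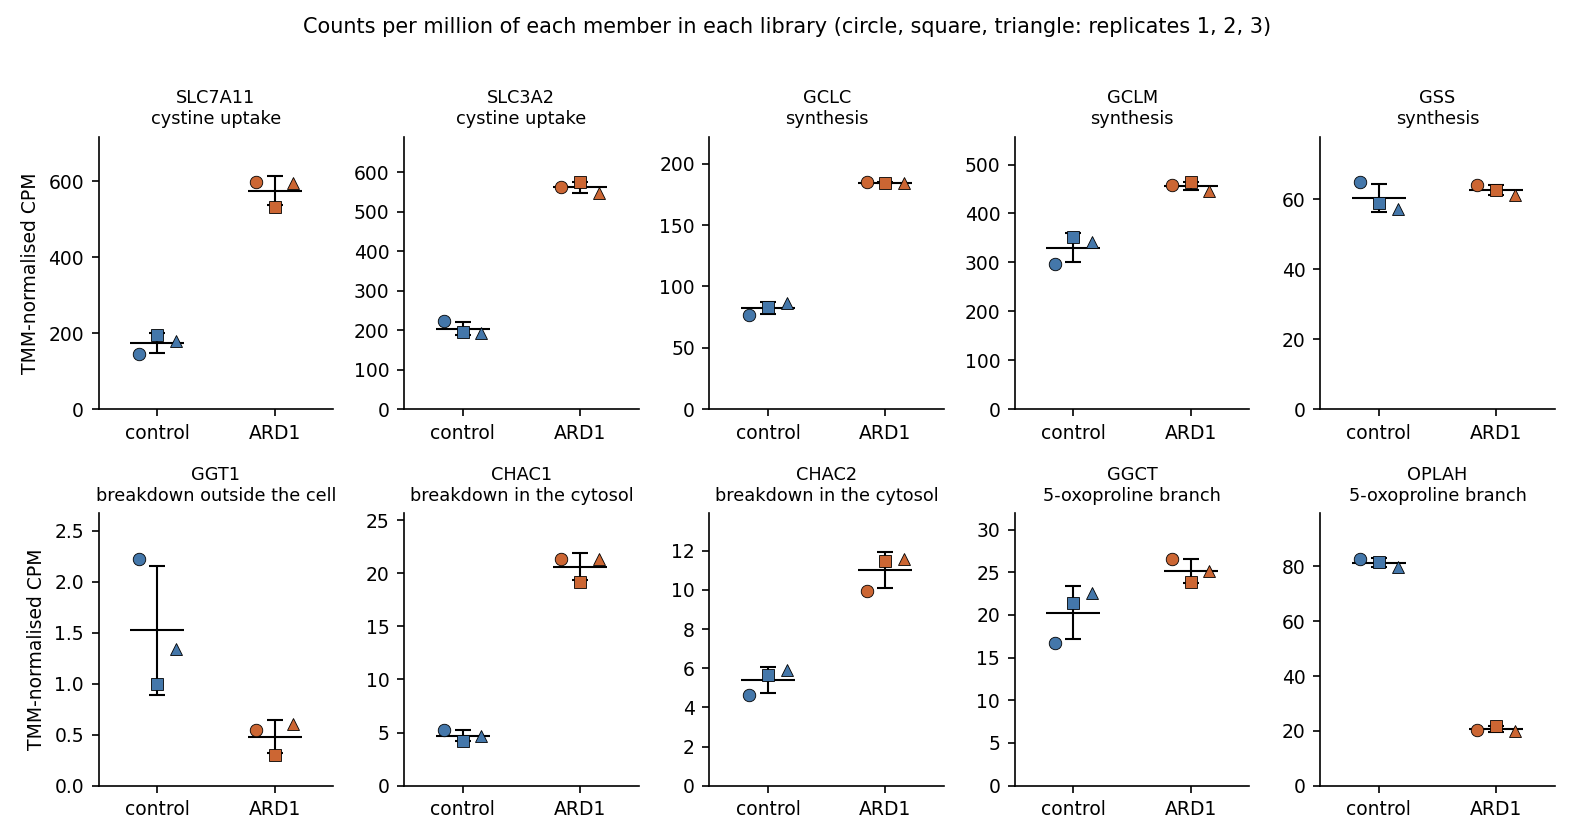
TMM-normalised CPM of each member in each of the 6 libraries, with the step of the pathway named above each panel. The horizontal line and bar are the mean and SD of 3 libraries, every axis starts at 0, and the groups overlap for GSS alone.

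Promoter windows, 250 bases before to 50 after a transcription start (RefSeq, GRCh38.p14), were given for 6 of the 10 members, in 10 windows since some have several starts. They are shown because 5 of these 6 genes (CHAC1, SLC3A2, GCLC, GCLM, CHAC2) rose together. Both strands were searched for TGATGNAA, the composite element read by ATF4, for TGACNNNGC, the core of the antioxidant response element read by NRF2, for TGANTCA, the AP-1 element, and for TGACGTCA, the cAMP response element. TGATGNAA or its complement was found in 2 of the members' 10 windows, in CHAC1 and SLC3A2, and in 3.62% of the 35116 promoter windows of all genes. TGACNNNGC was found in 3 of the 10, in GCLM, SLC3A2 and GGT1, and in 13.3% of all windows. TGANTCA was found in 1 of the 10, in SLC3A2, and in 7.71% of all. TGACGTCA was in 0 of the members' 10 windows and in 1.85% of all. In SLC3A2 the match to TGACNNNGC holds the match to TGANTCA within it. The antioxidant match of GGT1, a gene that fell, starts at base -29 from the start and is not printed. The stretches of 30 bases around 4 of the matches, all in genes that rose, follow on the strand of the gene, with the matched letters in capitals.
CHAC1, match starting at base -209 from the start, chr15:40953251-40953280, plus strand: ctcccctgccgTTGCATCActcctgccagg
SLC3A2, match starting at base 38 after the start, chr11:62881719-62881748, plus strand: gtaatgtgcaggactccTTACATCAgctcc
SLC3A2, match starting at base -37 from the start, chr11:62881652-62881681, plus strand: cgagggtgggTGACTCAGCgtcctccttcc
GCLM, match starting at base -34 from the start, chr1:93909445-93909474, minus strand: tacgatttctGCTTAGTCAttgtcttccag
In CHAC1 all 250 bases before the RefSeq start lie in annotated exon (GENCODE 29, whose gene start is further upstream), and all 8 bases of the match are in an exon of CHAC1 itself. The SLC3A2 match after the start is exonic as well. Of the 9 bases of the antioxidant matches, 3 in SLC3A2, 1 in GCLM and all 9 in GGT1 fall in an exon of the gene. The first 2 stretches show the letters of the ATF4 composite element on the opposite strand and the last 2 those of the antioxidant element. GCLC and CHAC2, which also rose, held 0 matches in their windows. A match is a description of the letters and not of binding, which was not measured.

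The transcripts of both chains of the cystine exchanger were higher in the ARD1 libraries. SLC7A11 (ENSG00000151012, chromosome 4, 138164097 to 138242349, minus strand, GRCh38, GENCODE 29) encodes the transporting light chain, and it was at 146, 196 and 179 CPM in control replicates 1 to 3 and at 598, 532 and 597 CPM in the ARD1 replicates. The lowest ARD1 library was far above the highest control, and the ratio of the groups was 3.31-fold (95% interval 2.87 to 3.83). SLC3A2 (ENSG00000168003, chromosome 11, 62856102 to 62888875, plus strand), the heavy chain that brings the exchanger to the cell surface, was at 222, 196 and 192 CPM in controls and at 563, 575 and 548 CPM in ARD1 libraries. That is a 2.76-fold rise (95% interval 2.48 to 3.08). Control replicate 1 was the lowest of the controls for SLC7A11 and the highest for SLC3A2. Without it the log2 fold changes were 1.61 and 1.52, against 1.73 and 1.47 with it. Of the exon bases of SLC7A11, 8.97% lie opposite exons of SLC7A11-AS1, which held 22, 26 and 21 counts in control and 45, 27 and 35 in ARD1 libraries. SLC7A11 held 3208, 4128 and 3998 counts and 14311, 14206 and 14826.

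The transcripts of the 3 enzymes of glutathione synthesis differed in the size of the change. GCLC (ENSG00000001084, chromosome 6, 53497341 to 53616970, minus strand), which carries the catalytic site of glutamate-cysteine ligase, was at 76.7, 83.5 and 86.5 CPM in control and at 185, 184 and 185 CPM in ARD1 libraries, a 2.24-fold rise (95% interval 2.02 to 2.49). The SD of its 3 ARD1 values, 0.476 CPM, is below the 2.71 CPM that counting alone would give, so that this SD understates the error. GCLM (ENSG00000023909, chromosome 1, 93885205 to 93909456, minus strand), the modifier that lowers the ligase's feedback inhibition by glutathione, was at 297, 353 and 341 CPM in control and at 457, 464 and 447 CPM in ARD1 libraries. The rise was 1.38-fold (95% interval 1.24 to 1.54), with no overlap between the groups. It depended on the processing more than that of GCLC: the log2 fold change of GCLM was 0.47 with TMM scaling, 0.73 with library totals alone and 0.19 with GC and length trends removed, and it passed in all 3 (adjusted p range over its alternatives in edgeR, DESeq2 and limma-voom 8.70e-10 to 0.00388).

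GSS (ENSG00000100983, chromosome 20, 34928433 to 34956027, minus strand), the synthetase that adds glycine, was at 64.9, 58.9 and 57.4 CPM in control and at 64.1, 62.8 and 61.3 CPM in ARD1 libraries. The groups overlapped, since control replicate 1 exceeded all ARD1 libraries. With all 6 libraries its ratio was 1.04-fold, with a 95% interval of 0.928 to 1.16, which leaves out a rise of the size seen for GCLC. With library totals alone (log2 fold change 0.32, adjusted p = 0.00103 in edgeR) and after removal of GC and length trends (0.19, adjusted p = 0.00365) GSS passed as higher, and the range over its alternatives was 0.00103 to 0.934. Of GCLC exon bases, 6.12% are shared with AL033397.1 on the same strand, a gene with 436, 724 and 665 counts in control and 436, 400 and 449 in ARD1 libraries.

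The transcripts of both CHAC enzymes, which break glutathione down in the cytosol, were higher in the ARD1 libraries. CHAC1 (ENSG00000128965, chromosome 15, 40952962 to 40956519, plus strand), the stress-induced gamma-glutamylcyclotransferase, was at 5.23, 4.23 and 4.71 CPM in control and at 21.4, 19.2 and 21.4 CPM in ARD1 libraries. Its rise of 4.36-fold (95% interval 3.65 to 5.21) was larger in absolute log2 fold change than that of the other 9 members, with the TMM scaling and in the other scalings tried. CHAC2 (ENSG00000143942, chromosome 2, 53767792 to 53775196, plus strand), which catalyses the same reaction more slowly and is regarded as the constitutive form, was at 4.64, 5.65 and 5.92 CPM in control and at 9.95, 11.5 and 11.6 CPM in ARD1 libraries. It rose 2.04-fold (95% interval 1.67 to 2.49), a log2 fold change of 1.03 that came to 0.92 without control replicate 1. CHAC1 held 115, 89 and 105 counts in control libraries and 511, 512 and 531 in ARD1 libraries. CHAC2 held 102, 119 and 132 counts and 238, 306 and 288. The 2 genes differ in length, so their counts do not rank their levels. Per kilobase of exon CHAC2 was the higher in control libraries (4.09 against 2.29 CPM) and CHAC1 in ARD1 libraries (10.03 against 8.33). The spread of both was close to counting error, at 1.08 to 1.39 times the SD that counting alone gives.

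GGT1 (ENSG00000100031, chromosome 22, 24583750 to 24629005, plus strand), the gamma-glutamyltransferase that acts outside the cell, had a scarce transcript that fell. It had 49, 21 and 30 counts in control and 13, 8 and 15 in ARD1 libraries, that is 2.23, 0.997 and 1.35 CPM against 0.5435, 0.2997 and 0.6037 CPM. The groups did not overlap, and the ratio was 3.16 times lower, but its error was the largest among the members (log2 fold change -1.66, SE 0.389, adjusted p = 0.00166 in edgeR). Without control replicate 1, the highest library, the log2 fold change was -1.30. GGT1 has near-identical copies on the same chromosome and 6.9% of its exon bases are shared with SNRPD3 on the same strand, so that its few counts are uncertain. SNRPD3 held far more counts, 800, 790 and 890 in control and 602, 653 and 595 in ARD1 libraries. Its part in the counts of GGT1 was not tested.

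The transcripts of the 5-oxoproline branch went opposite ways. OPLAH (ENSG00000178814, chromosome 8, 144051266 to 144063965, minus strand), the ATP-dependent 5-oxoprolinase that returns 5-oxoproline to glutamate, was at 82.8, 81.7 and 79.7 CPM in control and at 20.5, 21.9 and 19.9 CPM in ARD1 libraries. This 3.91 times lower level (log2 fold change -1.97, SE 0.0788) was the largest fall among the members, and 6.56% of all genes tested had a larger absolute log2 fold change. GGCT (ENSG00000006625, chromosome 7, 30496621 to 30504844, minus strand), the gamma-glutamylcyclotransferase that releases 5-oxoproline from gamma-glutamyl amino acids, was at 16.8, 21.5 and 22.6 CPM in control and at 26.6, 23.8 and 25.2 CPM in ARD1 libraries. Its rise of 1.24-fold (95% interval 1.05 to 1.47) was the smallest that passed (adjusted p = 0.0236 in edgeR), and the highest control lay just below the lowest ARD1 library. GGCT no longer passed without control replicate 1 (log2 fold change 0.18, adjusted p = 0.0565), without ARD1 replicate 1 (0.28, 0.0897), without ARD1 replicate 3 (0.32, 0.0565) or after removal of GC and length trends (0.19, 0.0529), with a range over its alternatives of 0.00141 to 0.0897. With library totals alone it was 0.57. Of GGCT exon bases 27.6% are shared with AC005154.5 on the same strand, and 4.65% of those of OPLAH lie opposite SMPD5.

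**Figure D2:**
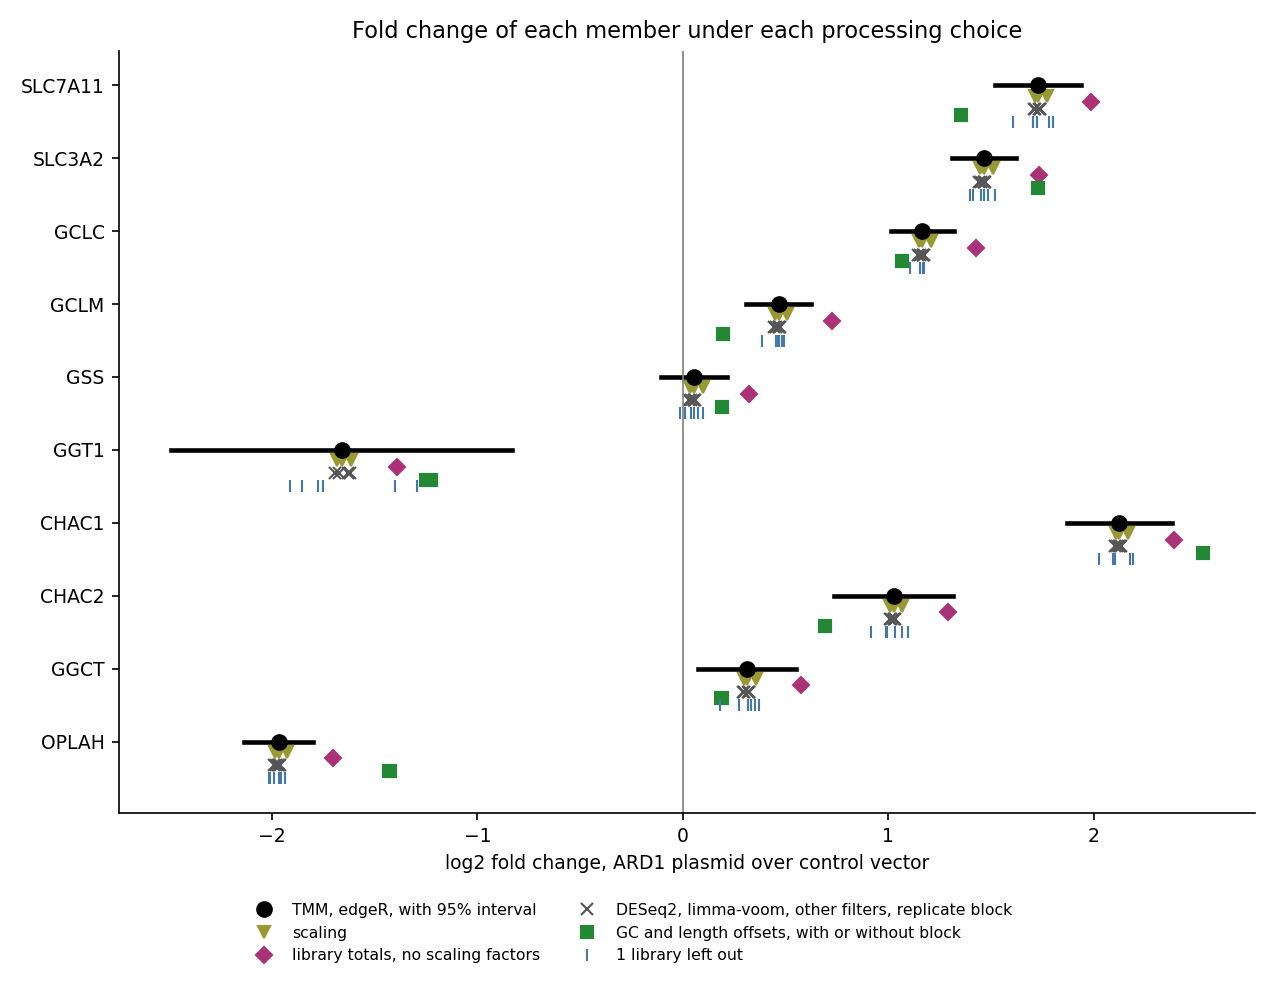
Log2 fold change of each member, ARD1 plasmid over control vector, with its 95% interval (black) and its value under each other processing choice. CHAC1, SLC7A11, SLC3A2, GCLC and CHAC2 stay above 0.6 and OPLAH and GGT1 below -1.2, while GCLM lies between 0.19 and 0.73, GGCT between 0.18 and 0.57 and GSS between -0.013 and 0.32.

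A ratio of 2 genes' counts within a library does not depend on how libraries are scaled. It was therefore used to ask whether steps changed by different amounts. It does carry the GC and length trends described further on, so each ratio was also computed with those trends removed, an alternative chosen after seeing the data. Since genes differ in length, each ratio is compared between libraries and not with 1. With 3 libraries against 3 the exact two-sided permutation test cannot go below p = 0.1. For 7 of the 8 ratios the groups did not overlap and the exact p was this smallest value of 0.1, 0.114 after Benjamini-Hochberg adjustment over the 8. With trends removed the groups were apart for all 8 (exact p = 0.1 each), 7 kept their direction and SLC7A11 to SLC3A2 turned.

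Within the ligase, the GCLC to GCLM ratio was 0.259, 0.237 and 0.253 in control libraries and 0.405, 0.397 and 0.413 in ARD1 libraries, so that it was 1.62 times higher. The transcript of the catalytic subunit gained on that of the modifier in all 3 ARD1 libraries. The GCLC to GSS ratio, first step over second, was 1.18, 1.42 and 1.51 against 2.89, 2.93 and 3.02. The SLC7A11 to GCLC ratio, uptake over ligase, was 1.90, 2.35 and 2.07 against 3.23, 2.89 and 3.23. GCLC to GSS was thus 2.16 times higher and SLC7A11 to GCLC 1.48 times higher. With trends removed GCLC to GCLM, GCLC to GSS and SLC7A11 to GCLC were 1.83, 1.83 and 1.22 times higher.

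In the exchanger, the SLC7A11 to SLC3A2 ratio was 0.658, 0.9998 and 0.933 in control and 1.06, 0.926 and 1.09 in ARD1 libraries. These groups overlapped (exact permutation p = 0.3, two-sided), and the log2 change of 0.27 came to 0.08 without control replicate 1. With GC and length trends removed the direction turned: the ratio was 1.08, 1.11 and 1.02 in control and 0.859, 0.770 and 0.841 in ARD1 libraries, a log2 change of -0.37 with no overlap (exact permutation p = 0.1, the smallest possible). Which of the 2 chains changed more thus depended on whether these trends were removed.

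On the breakdown side, the CHAC1 to CHAC2 ratio was 1.13, 0.748 and 0.795 in control and 2.15, 1.67 and 1.84 in ARD1 libraries, 2.15 times higher and 3.60 times higher with trends removed. The CHAC1 to GCLC ratio, breakdown over synthesis, had means of 0.0577 ± 0.00921 and 0.112 ± 0.00659 (SD, n = 3 each). It was 1.95 times higher and 2.77 times higher with trends removed. The OPLAH to GGCT ratio went from 4.94, 3.81 and 3.53 to 0.770, 0.921 and 0.792, which is 4.90 times lower and 3.08 times lower with trends removed. The GGT1 to GCLC ratio was 0.0290, 0.0119 and 0.0156 against 0.00294, 0.00163 and 0.00327, from few GGT1 counts. It was 7.01 times lower and 4.95 times lower with trends removed.

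**Figure D3:**
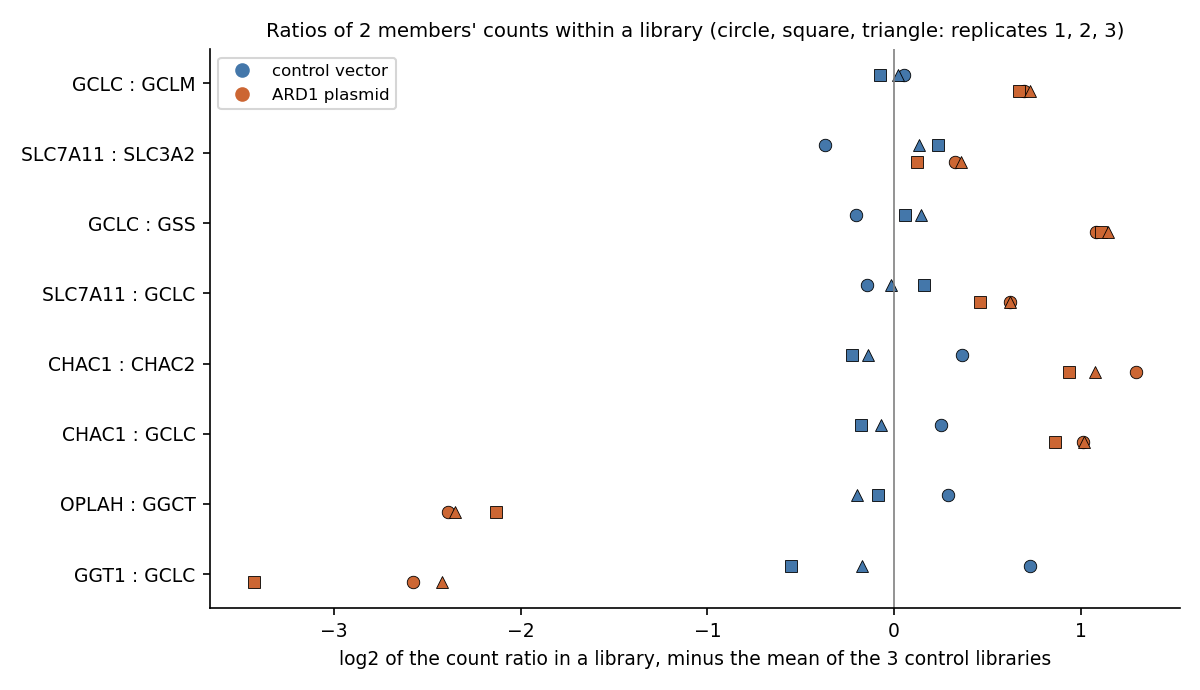
Log2 of the ratio of 2 members' counts in each library, with GC and length trends left in, set to 0 at the mean of the 3 control libraries. The control and ARD1 libraries overlap for SLC7A11 to SLC3A2 and are apart for the other 7 ratios.

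Per kilobase of exon, which allows genes to be compared, the order of the members changed between the groups. In control libraries the modifier GCLM was highest at 60.9 ± 5.45 CPM per kilobase (SD, n = 3), followed by SLC3A2 at 39.3 ± 3.09. OPLAH at 18.3 ± 0.351 and SLC7A11 at 18.0 ± 2.65 came next and did not differ beyond their spread, then GGCT at 12.7 ± 1.94. The order of OPLAH and SLC7A11 turned on control replicate 1, where SLC7A11 was lower (15.1 against 18.6), while in replicates 2 and 3 it was higher (20.3 and 18.6 against 18.3 and 17.9). GSS at 9.78 ± 0.648 and GCLC at 9.51 ± 0.579 did not differ beyond their spread either. CHAC2 at 4.09 ± 0.513, CHAC1 at 2.29 ± 0.243 and GGT1 at 0.344 ± 0.143 were the lowest.

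In ARD1 libraries SLC3A2 led at 108 ± 2.60 CPM per kilobase, before GCLM at 84.1 ± 1.62 and SLC7A11 at 59.7 ± 3.91. GCLC at 21.4 ± 0.0551 stood above GGCT at 15.8 ± 0.867 and GSS at 10.2 ± 0.234, although GCLC and GSS had been level in the controls. CHAC1 had reached 10.03 ± 0.614, within the spread of GSS and above CHAC2 at 8.33 ± 0.690. OPLAH had dropped to 4.67 ± 0.235, and GGT1 remained lowest at 0.109 ± 0.0363. Among the 15246 tested genes with a length, SLC3A2 was in the top 7.18% in control and the top 1.46% in ARD1 libraries. CHAC1 moved from the top 60.9% to the top 27.7% and OPLAH from the top 16.7% to the top 46.1%. These lengths are the union of all annotated exons, so a gene with long exons that these cells do not use is understated.

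The members fell into low-GC and high-GC genes, and the libraries differed along the same line. SLC7A11 (35.4% GC), CHAC2 (36.7%), GCLM (37.3%), GGCT (43.1%) and GCLC (44.3%) had their lowest control value in replicate 1. GSS (54.2%), SLC3A2 (57.4%), GGT1 (61.7%), CHAC1 (62.6%) and OPLAH (66.6%) had their highest control value there. Over all genes tested, those under 45% GC were 0.23 lower on the log2 scale in control replicate 1 than in the mean of replicates 2 and 3 (median), and those over 54% were 0.20 higher.

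The comparison of the groups had a GC trend as well. The median log2 fold change was 0.21 over the 5653 genes under 45% GC, of which 43.2% rose and 19.95% fell. It was -0.29 over the 4867 genes over 54%, of which 19.97% rose and 48.9% fell. SLC7A11, CHAC2, GCLM, GGCT and GCLC rose and lie in the class under 45% GC. SLC3A2 and CHAC1 rose although they lie in the high-GC class. With GC and length trends removed their log2 fold changes were 1.73 and 2.53, larger than the 1.47 and 2.13 with TMM alone, while those of SLC7A11 (1.36), GCLC (1.06), CHAC2 (0.69), OPLAH (-1.43) and GGT1 (-1.25) were nearer to 0. Each of these 7 still passed.

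**Figure D4:**
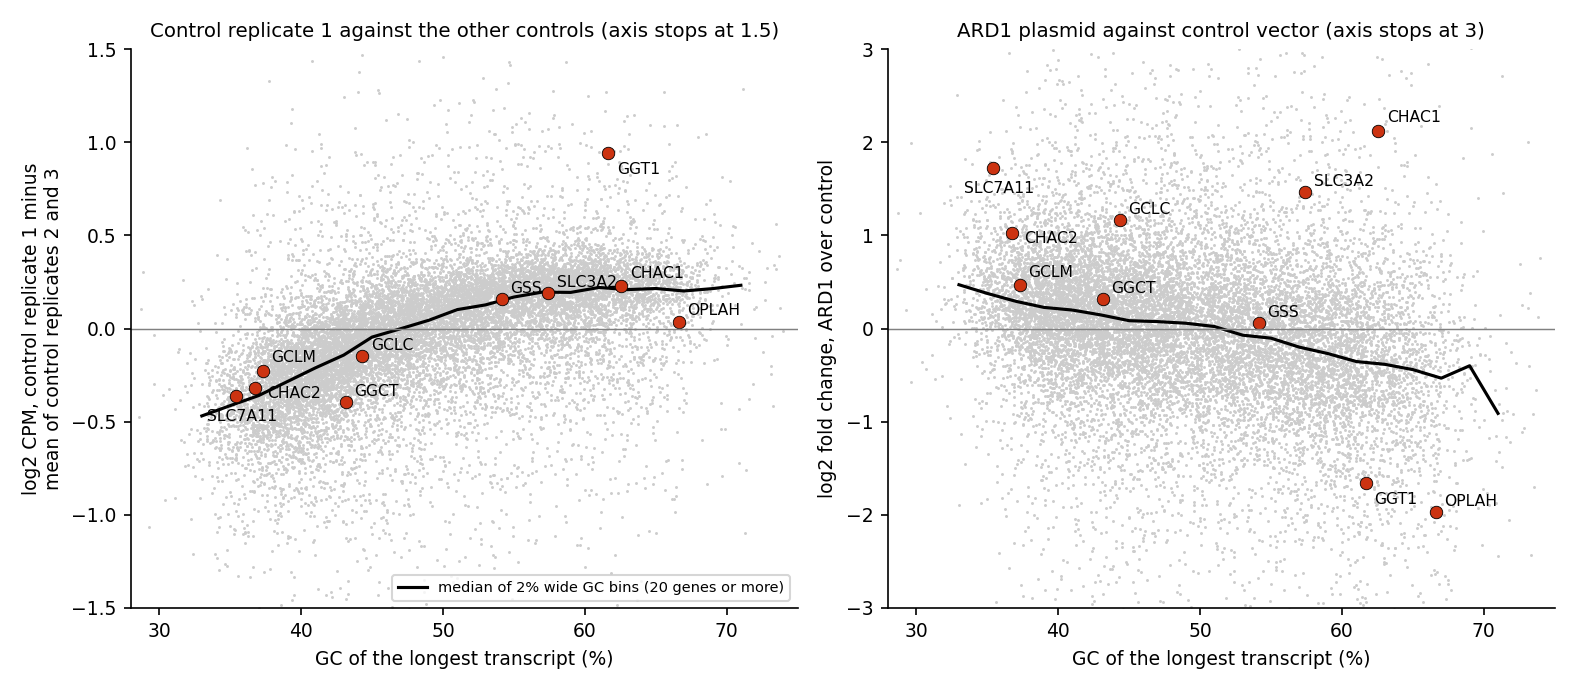
GC of the longest transcript against the log2 deviation of control replicate 1 from the other controls (left) and against the log2 fold change between groups (right), with all tested genes in grey, the median per GC bin as a line and the members in red. Members under 45% GC lie below 0 on the left and those over 54% above 0, and CHAC1 and SLC3A2 lie far above the line on the right.

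Around the members, 54 other genes of cystine and glutathione handling and their regulators were listed by function, of which 45 were tested. Among these 45 genes 15 rose and 17 fell, and their median log2 fold change was -0.03. These 71.1% that passed compare with the background of 64.6%, so the share by itself does not set the list apart. The split depended on the scaling, with 23 higher and 11 lower with library totals alone. In that setting 7597 of all 15816 genes tested passed as higher and 3488 as lower.

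Of 7 tested genes of the gamma-glutamyl cycle and the dipeptidases, other than the members, 5 fell and 0 rose, and their median was -0.54. Among all genes tested, 32.2% passed as lower and 32.4% as higher. Under library totals without scaling factors 3 fell and 0 rose (median -0.27). With GC and length offsets 5 fell and 0 rose, and the median came to -0.23. GGT5, a second gamma-glutamyltransferase, fell from 3.26 ± 0.461 to 1.22 ± 0.428 CPM (SD, n = 3 each; log2 fold change -1.41), GGT7, another member of that family, from 21.0 ± 2.25 to 9.76 ± 0.441 CPM (-1.11), and GGACT, a gamma-glutamylamine cyclotransferase, fell by 0.56 on the log2 scale. GGACT did not pass with library totals alone (-0.30, adjusted p = 0.134) or without ARD1 replicate 1 (-0.46, adjusted p = 0.0529), with a range over its alternatives of 0.00642 to 0.134. With GC and length trends removed GGT7 came to -0.73. With GGT1 at -1.66, the 3 transferase genes tested, GGT1, GGT5 and GGT7, were lower in all scalings tried.

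Of 7 tested genes for glutathione transport across membranes 5 fell and 0 rose, and their median was -0.33. Of all genes tested 32.2% passed as lower and 32.4% as higher. Under library totals without scaling factors 3 fell and 2 rose (median -0.06). Without control replicate 1, 5 fell and 1 rose (median -0.36), and likewise with GC and length offsets (median -0.46). The exporters of glutathione and its conjugates ABCC3 (408.5 ± 9.68 to 142 ± 8.62 CPM, log2 fold change -1.52), ABCC2 (436 ± 15.8 to 253 ± 2.22 CPM, -0.79) and ABCC1 (286 ± 20.7 to 177 ± 4.73 CPM, -0.69) had the largest changes. These 3 stayed lower and past the threshold in all alternatives, and ABCC1 and ABCC2 came to -0.42 and -0.52 with library totals alone.

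Other light chains that pair with SLC3A2 went both ways, with 2 of 4 higher and 1 lower. The background was 32.4% higher and 32.2% lower over all genes tested, for this list and those that follow. SLC7A5, a carrier of large neutral amino acids, rose from 270 ± 31.4 to 478 ± 20.7 CPM (log2 fold change 0.83), and SLC7A8, a related carrier, rose by 1.11 on the log2 scale from a low level of 1.08 ± 0.120 CPM. SLC7A7, a carrier of cationic amino acids, fell by 0.52 on that scale and by 0.26 with library totals alone. Of 6 other carriers of cystine, cysteine and glutamate 2 rose and 2 fell, against 4 and 1 with GC and length trends removed. SLC1A4, a neutral amino acid carrier, rose by 0.67. CTNS, which releases cystine from the lysosome, fell (-0.48, and -0.21 both with library totals and with trends removed). MFSD12, a lysosomal cysteine carrier, fell by 0.39, but its direction turned with trends removed (0.18) and it did not pass under library totals (-0.12, adjusted p = 0.229, where its alternatives ranged from 0.000158 to 0.229). In disulfide reduction 2 of 5 rose and 2 fell. The cytosolic thioredoxin reductase TXNRD1 rose by 0.27 (0.53 with library totals alone), and the mitochondrial TXN2 (-0.50) and TXNRD2 (-0.75) fell, by less with library totals alone (-0.235 and -0.49) and with trends removed (-0.29 and -0.37).

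Among 16 upstream regulators 9 rose and 2 fell, with a median of 0.28, and 13 rose and 1 fell with library totals alone. The background over all genes tested was 32.4% higher and 32.2% lower. It shifted with library totals alone, where 7597 of all 15816 genes tested passed as higher and 3488 as lower. ATF3 (log2 fold change 2.63) and DDIT3 (2.49), transcription factors of the stress response, and NFE2L2 (1.84), which encodes NRF2, had the largest rises. ATF4 itself did not pass in transcript level, at 396 ± 5.08 and 431 ± 14.4 CPM (0.12, adjusted p = 0.109 in edgeR). It passed as higher with library totals alone (0.39), with upper-quartile scaling (0.16), with trends removed (0.35) and without control replicate 1 (0.10), with a range over its alternatives of 9.45e-06 to 0.321. EIF2AK4, the kinase GCN2 that senses uncharged tRNA, rose by 0.68, and the values of the other 3 kinases of that family were 0.02 (EIF2AK1), 0.11 (EIF2AK2) and 0.04 (EIF2AK3). OTUB1, a deubiquitinase known to stabilise the SLC7A11 protein, fell from 85.8 to 37.0 CPM (mean, -1.21). The other regulator that fell was TRIB3, from 359 ± 36.4 to 311 ± 17.1 CPM (-0.20, adjusted p = 0.0355 in edgeR). With library totals alone OTUB1 was the 1 that fell. EIF2AK1, EIF2AK2, EIF2AK3, EIF2AK4, OTUB1 and TRIB3 were singled out after their values were seen.

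**Figure D5:**
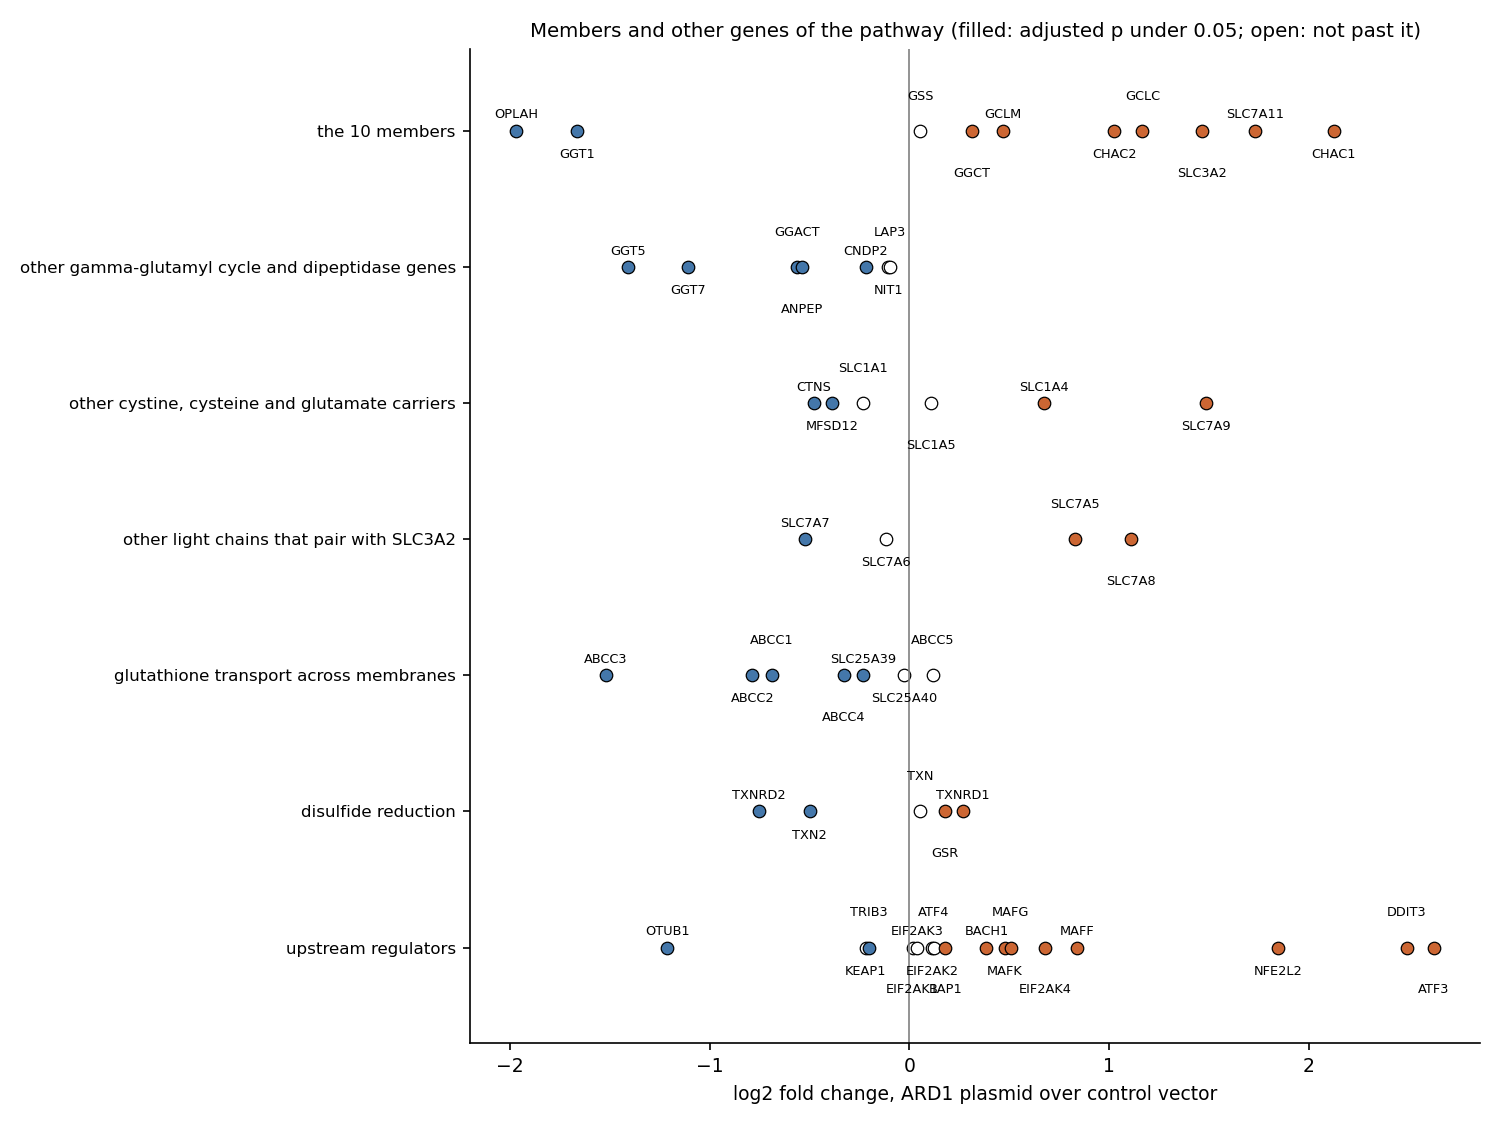
Log2 fold change of the 10 members and of the tested genes in each list of other pathway genes, filled where the adjusted p is under 0.05. The gamma-glutamyl cycle and transport lists hold 0 filled points above 0, and the regulators hold 9.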

How the data were processed

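The deposited table holds raw counts per Ensembl gene for 6 libraries, made by the authors without normalization. Per the labels' protocols, ribosomal RNA was removed and libraries were made with a directional kit. The submitters' processing notes name cutadapt 4.6, STAR 2.7.11b and GRCh38. The sources used here do not give the counting program, strand setting or annotation. Groups and replicate numbers come from the sample titles. Whether a group's libraries are separate cultures is not stated: p-values rest on the spread among these libraries, possibly a technical one. Counts carry no molecular identifiers.

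Of 25071 genes, 25052 had a symbol in the names table. filterByExpr kept 15816 genes, TMM scaled the libraries, and edgeR 4.0.16 (R 4.3.3) compared the groups with its quasi-likelihood test, adjusted over all genes tested. Fold changes set the ARD1 plasmid over the control, with SE and 95% intervals from the F statistic. Exon lengths, GC and coordinates come from GENCODE 29. GC and length offsets were lowess trends per library over 15238 genes. Alternatives were other scalings, DESeq2 1.42.0, limma-voom (limma 3.58.1), other filters, a replicate block and each library left out. The fits were tested on simulated data. The members, lists and motifs were chosen with earlier results of these data known. All members are named. Of each other list up to 3 members past the threshold are named, those with the largest absolute log2 fold change, a mean of 1 CPM or more in 1 group and no overlap, plus NFE2L2 and ATF4.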

Additional observations from a re-analysis of the deposited data

How the results depend on the processing

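Of the 10 members, 8 kept their direction and stayed past the threshold in all alternatives in which they were tested (GGT1 was not tested with the filter of 1 CPM in 3 libraries), and the number of members that passed was 8 to 10. GSS passed as higher with library totals alone (log2 fold change 0.32), with GC and length offsets (0.19) and with these offsets and the replicate block (0.19). Leaving out each library in turn gave -0.013 to 0.098 for GSS, with the negative value, not past the threshold, without control replicate 3, and 0.18 to 0.37 for GGCT. With GC and length offsets GGCT came to 0.187, and to 0.189 with the block as well, and did not pass in either. Library totals without scaling factors shifted the median over all genes from 0.03 to 0.30, and the share of changed genes that were higher from 50.2% to 68.5%. The cause was not tested.

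No pairing of the libraries by replicate number was seen, though this check cannot tell whether same-numbered libraries were handled together. The deviations of same-numbered libraries from their group means correlated at 0.0168, -0.0356 and 0.0342 across genes, and not every library correlated best with its own number. With the replicate block 10293 genes passed in place of 10223 and the 9 members were again past the threshold. All 8 count ratios kept their direction when a library was left out or 0.5 was added to each count. With GC and length trends removed, SLC7A11 to SLC3A2 turned to a log2 change of -0.37 and the other 7 kept their direction. Depth limits GGT1, with 8 to 49 counts a library.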
